A study of Homo sapiens with 6 samples.

Results

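The genes through which glucose enters these cells and is trapped in them were followed in 6 RNA-seq libraries: the transporters SLC2A1, SLC2A3, SLC2A6, SLC2A8 and SLC2A10, the hexokinases HK1, HK2 and HKDC1, and the glucose-sensing arrestins TXNIP and ARRDC4. These 10 genes were taken by symbol from the 60664 genes of the deposited table, and each symbol matched 1 row. All libraries came from 67R cells, an NCI-H1975 lung adenocarcinoma line (a non-small cell lung cancer with mutant EGFR) that had been selected for growth in rising doses of the EGFR inhibitor ASK120067 until resistant. Cells of 3 libraries carried a negative control siRNA (siNC) and those of the other 3 an siRNA against BCAT1 (siBCAT1), the cytosolic branched-chain amino acid transaminase, both delivered with the lipid reagent RNAiMAX. The comparison asks how lowering BCAT1 changes gene expression in resistant cells. All cells are 1 line, the labels give neither an siRNA sequence nor the time after transfection (the study's methods use the name siBCAT1 for the second of the 2 BCAT1 siRNAs they describe), and no source says that the 3 libraries of a group came from separate cultures, so p-values measure only the spread between these libraries.

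Glucose crosses the plasma membrane through facilitative transporters of the SLC2A (GLUT) family and is then phosphorylated by a hexokinase, which keeps it in the cell as glucose 6-phosphate. TXNIP and its relative ARRDC4 are alpha-arrestins that draw glucose transporters off the cell surface, and their genes are switched on by the transcription factor MondoA (MLXIP) with its partner MLX when glucose 6-phosphate builds up. Lung adenocarcinomas commonly take up much glucose, and SLC2A1 is their best known transporter.

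Expression was read in TPM, which corrects for the length of each gene and the size of each library, so that levels can be compared between genes. A gene was tested when its mean over the 6 libraries was at least 1 TPM, which 14286 genes and 9 of the 10 followed here met. Fold changes are given as differences of log2(TPM + 1), a scale that understates the change of weakly expressed genes, and a gene is said to have risen or fallen when limma's adjusted p was under 0.05. Read depth is unknown, and 23152 to 25043 genes had a value above 0. BCAT1 itself, with means of 38.2 ± 7.33 and 7.96 ± 0.841 TPM (SD, n = 3 each), fell by 2.12 on the log2 scale (SE 0.15, Benjamini-Hochberg adjusted p = 0.000272 from limma). Of 8 epithelial markers, 5 passed the filter and 4 fell (KRT18 lost its call in 6 of 14 alternative analyses and KRT8 in 1), with a summed level of 2461 to 2859 TPM in siNC and 1614 to 1897 TPM in siBCAT1 libraries. The share of all tested genes that fell was 10.4%. KRT7, KRT8 and KRT18, keratins of simple epithelia, stood at 922, 1225 and 462 TPM on average in siNC cells, and CDH1, the epithelial cadherin, at 19.7 TPM and 3.10 TPM in siBCAT1 cells, whereas EPCAM, an epithelial adhesion protein, had 0.91 to 1.55 TPM in siNC and 1.96 to 2.61 TPM in siBCAT1 libraries (log2 difference 0.56, adjusted p = 0.0732 from limma). The lung lineage markers NKX2-1, NAPSA and SFTPB did not exceed 0.33 TPM in any library. Of 8 markers of other cell types, CD3E (T cells) and DCN (fibroblasts) were at 0 in every library and PTPRC (leukocytes) was at 0 in 5 of 6. PECAM1 (endothelium), HBB (a globin) and ALB (albumin) reached at most 0.04, 0.19 and 0.29 TPM. The summed level of these 8 was 41.3 to 54.8 TPM in siNC and 61.2 to 69.1 TPM in siBCAT1 libraries, nearly all of it from CD68 (33.3 and 54.9 TPM on average), a lysosomal membrane protein, and COL1A1 (15.8 and 9.41 TPM), a collagen chain. Whether the shifts of these markers bear on the genes below was not tested. In bulk RNA, fewer cells expressing a gene and less RNA of it per cell cannot be told apart.

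Of the 9 tested genes, SLC2A1, SLC2A8 and TXNIP fell after BCAT1 knockdown and 0 rose. Across all tested genes, 10.4% fell and 16.7% rose. At an unadjusted p under 0.05, limma gave 5 lower and 0 higher, against 15.9% lower and 23.8% higher of all tested genes. For 6 of the 9 every siBCAT1 library lay below every siNC library (18.0% of all tested genes did so), for 0 of the 9 it was the reverse (26.1% of all tested genes), and for SLC2A3, HK2 and HKDC1 the groups overlapped. The median log2 fold change was -0.18 for these 9 genes and 0.04 for all tested genes.

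**Figure D1:**
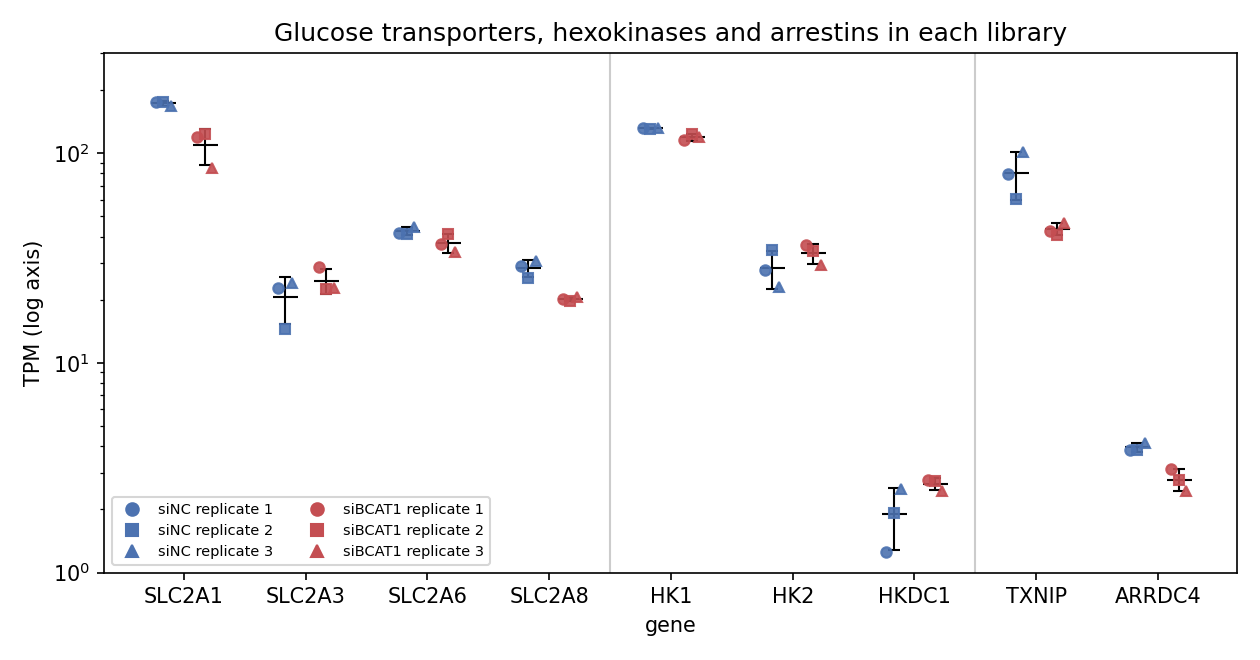
TPM of the 9 tested genes (log axis) in each siNC (blue) and siBCAT1 (red) library, with the marker shape giving the replicate number and bars the group mean ± SD (n = 3). The siBCAT1 points lie wholly below the siNC points for SLC2A1, SLC2A6, SLC2A8, HK1, TXNIP and ARRDC4, by little for SLC2A6.

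SLC2A1 (GLUT1, ENSG00000117394) encodes the high-affinity basal glucose transporter and lies at chr1:42925375-42959176 on the minus strand of GRCh38. It had 176, 176 and 167 TPM in siNC replicates 1, 2 and 3 and 119, 123 and 85.1 TPM in siBCAT1 replicates 1, 2 and 3. The siNC libraries were close together, every siBCAT1 library was lower, and siBCAT1 replicate 3 was the lowest. The mean went from 173 ± 4.86 to 109 ± 20.9 TPM (SD, n = 3 each), or 63.2% of the siNC mean, which is -0.68 as a log2 fold change (SE 0.13, 95% interval -0.99 to -0.36, adjusted p = 0.0109 from limma). Without siNC replicate 1 the log2 fold change was -0.67 and its adjusted p 0.0559 from limma, above the threshold. The antisense gene SLC2A1-AS1, which overlaps it, averaged 0.30 TPM, and the library kit keeps the strand, although the sources used here do not state that quantification used it.

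SLC2A8 (GLUT8, ENSG00000136856; chr9:127397138-127408424, plus strand) encodes a transporter held mostly in intracellular membranes. Its level was 28.9, 25.3 and 30.6 TPM in siNC replicates 1, 2 and 3, against 20.1, 19.7 and 20.6 TPM in the siBCAT1 replicates. The siBCAT1 libraries were nearly equal and all below the lowest siNC library. SLC2A8 fell, with means of 28.3 ± 2.73 and 20.1 ± 0.455 TPM (SD, n = 3 each) and a log2 difference of -0.47 (SE 0.09, 95% interval -0.68 to -0.26, adjusted p = 0.00939 from limma). Of the genes that fell, SLC2A8 and neither SLC2A1 nor TXNIP was past the threshold in all 14 alternative analyses, with adjusted p values between 0.00416 and 0.0456 from limma.

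SLC2A6 (GLUT6, ENSG00000160326; chr9:133471095-133479137, minus strand), another transporter of internal membranes, had 41.5, 41.23 and 44.5 TPM in siNC and 37.0, 41.22 and 33.7 TPM in siBCAT1 replicates. The groups were separate only in the second decimal. Its means were 42.4 ± 1.81 and 37.3 ± 3.78 TPM (SD, n = 3 each), and the log2 fold change of -0.18 (SE 0.09, 95% interval -0.39 to 0.02) did not pass the test (adjusted p = 0.169 from limma). Without siBCAT1 replicate 3 it was -0.12.

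SLC2A3 (GLUT3, ENSG00000059804; chr12:7919230-7936275, minus strand), the high-affinity transporter best known from neurons, had 22.9, 14.6 and 24.1 TPM in siNC and 28.7, 22.5 and 22.9 TPM in siBCAT1 replicates. The groups overlapped, with siNC replicate 2 the lowest of all libraries and siBCAT1 replicate 1 the highest. The log2 fold change was 0.28 (SE 0.19, 95% interval -0.18 to 0.73, adjusted p = 0.329 from limma), so that neither a small fall nor a rise of SLC2A3 was resolved from the spread between libraries. It was 0.06 without siNC replicate 2 and 0.17 without siBCAT1 replicate 1. Reads of SLC2A3 may be split with its near-identical paralogue SLC2A14, which was at 0 in siNC and reached 0.08 TPM in siBCAT1 libraries, and with 3 annotated pseudogenes, the most abundant of which averaged 0.87 TPM. SLC2A10 (GLUT10, ENSG00000197496; chr20:46709487-46736347, plus strand) was listed at 0.01 TPM in siNC replicate 1 and at 0 in the other 5 libraries, and was not tested.

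Added up within each library, the transporters named above gave 269, 257 and 266 TPM in siNC and 205, 207 and 162 TPM in siBCAT1 replicates. All siBCAT1 sums were below all siNC sums, and the means were 264 ± 6.39 and 191 ± 25.2 TPM (SD, n = 3 each; two-sided exact permutation p = 0.1, the smallest that 3 libraries against 3 can give). SLC2A1 made up 65.5 ± 2.84% of this sum in siNC and 56.8 ± 3.79% in siBCAT1 libraries. The share of SLC2A3 was 7.73 ± 1.81% and 13.0 ± 1.84%, and that of SLC2A6 was 16.1 ± 0.632% and 19.6 ± 1.37% (SD, n = 3 each). For each of these 3 shares the groups did not overlap and the exact permutation p was 0.1. Shares of a sum are tied to each other, so these are not 3 separate shifts. A larger share of SLC2A6 or SLC2A3 is no rise of the gene. The mean of SLC2A6 was 42.4 TPM in siNC and 37.3 TPM in siBCAT1 libraries, and neither gene passed the test. The share of SLC2A8 was 10.7% in both groups (SD 0.827 in siNC and 1.75 in siBCAT1, n = 3 each; exact permutation p = 0.9), and the groups overlapped.

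HK1 (ENSG00000156515; chr10:69269984-69401884, plus strand), the housekeeping hexokinase that docks on the outer mitochondrial membrane, had 131, 131 and 131 TPM in siNC and 115, 124 and 119 TPM in siBCAT1 replicates. All siBCAT1 libraries were below the narrow siNC range. The means of 131 ± 0.474 and 119 ± 4.37 TPM (SD, n = 3 each) differed by -0.14 on the log2 scale (SE 0.05, 95% interval -0.26 to -0.02) that did not pass the test over all genes (adjusted p = 0.0935 from limma). With quantile normalization the log2 fold change was -0.24 and passed it (adjusted p = 0.0159 from limma).

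HK2 (ENSG00000159399; chr2:74833981-74893359, plus strand), the inducible hexokinase of many tumours, had 27.6, 34.7 and 22.9 TPM in siNC and 36.4, 34.1 and 29.2 TPM in siBCAT1 replicates. The groups overlapped, siNC replicate 2 being above siBCAT1 replicates 2 and 3, and the log2 fold change was 0.23 (SE 0.15, 95% interval -0.13 to 0.60, adjusted p = 0.307 from limma). The estimate for HK2 was 0.09 without siNC replicate 3 and 0.38 without siNC replicate 2. An overlapping antisense gene, AC019069.1, averaged 1.58 TPM. HKDC1 (ENSG00000156510; chr10:69220303-69267559, plus strand), a weakly active hexokinase encoded next to HK1, had 1.26, 1.93 and 2.51 TPM in siNC and 2.75, 2.73 and 2.44 TPM in siBCAT1 replicates. Here siBCAT1 replicate 3 lay just below siNC replicate 3, and the log2 fold change of 0.35 (SE 0.20, 95% interval -0.12 to 0.82) did not pass the test (adjusted p = 0.243 from limma) and was 0.18 without siNC replicate 1.

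The summed level of HK1, HK2 and HKDC1 was 160, 167 and 157 TPM in siNC and 154, 161 and 150 TPM in siBCAT1 replicates, and the groups overlapped. The means were 161 ± 5.26 and 155 ± 5.15 TPM (SD, n = 3 each; exact permutation p = 0.3, two-sided), a difference of -6.49 TPM that was -3.62 TPM without siNC replicate 2 and -4.16 TPM without siBCAT1 replicate 3. HK1 contributed 81.3 ± 2.89% and 76.9 ± 2.19% of it and HK2 17.5 ± 3.07% and 21.4 ± 2.11% (SD, n = 3 each; exact permutation p = 0.2 for each), in siNC and siBCAT1 cells respectively. HKDC1 supplied 1.18 ± 0.408% and 1.70 ± 0.0807% (SD, n = 3 each; exact permutation p = 0.1), without overlap of the groups. The differences in the shares of HK2 and HKDC1 were 3.91 and 0.523 percentage points, and shrank to 2.46 without siNC replicate 3 and 0.326 without siNC replicate 1. Within libraries, the log2 ratio of HK2 to HK1 was -2.19 ± 0.293 in siNC and -1.82 ± 0.178 in siBCAT1 cells (SD, n = 3 each; exact permutation p = 0.2), a difference of 0.37 that was 0.23 without siNC replicate 3. In all, 11 sums, shares and ratios were compared, and Benjamini-Hochberg adjustment over them takes an exact permutation p of 0.1 to 0.22. A shift among the hexokinase isoforms was not resolved with 3 libraries a group.

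TXNIP (ENSG00000265972; chr1:145992435-145996600, minus strand) binds thioredoxin and promotes removal of SLC2A1 from the cell surface. Its level was 79.3, 60.6 and 101 TPM in siNC replicates 1, 2 and 3 and 42.7, 40.8 and 46.5 TPM in siBCAT1 replicates 1, 2 and 3. The siNC libraries were widely spread, the siBCAT1 libraries were not, and the lowest siNC library was above the highest siBCAT1 library. TXNIP fell from 80.4 ± 20.3 to 43.3 ± 2.87 TPM (SD, n = 3 each), or 53.9% of the siNC mean, which is -0.85 as a log2 fold change (SE 0.17, 95% interval -1.25 to -0.45, adjusted p = 0.0113 from limma). The call was lost without siNC replicate 1 (-0.84, adjusted p = 0.0568), siBCAT1 replicate 1 (-0.84, adjusted p = 0.0523) or siBCAT1 replicate 2 (-0.81, adjusted p = 0.0536, all from limma), with the fold change hardly altered.

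ARRDC4 (ENSG00000140450; chr15:97960698-97973838, plus strand), the other glucose-sensing arrestin, was expressed at 3.86, 3.84 and 4.16 TPM in siNC and 3.12, 2.76 and 2.45 TPM in siBCAT1 replicates. The groups did not overlap. The means were 3.95 ± 0.179 and 2.78 ± 0.335 TPM (SD, n = 3 each), and the log2 fold change of -0.39 (SE 0.14, 95% interval -0.72 to -0.07) missed the threshold (adjusted p = 0.0723 from limma). It passed with a prior variance that did not follow expression (adjusted p = 0.0278), with median-ratio scaling of the libraries (0.0449) and with correction for GC content and length (0.0379, all from limma). The log2 ratio of TXNIP to ARRDC4 was 4.01 ± 0.321 in siNC and 3.56 ± 0.199 in siBCAT1 cells (SD, n = 3 each; exact permutation p = 0.2), so a difference in response between these paralogues was not resolved.

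The promoters of these paralogues are shown because both genes are known MondoA targets. MondoA and its partners bind E-boxes, of which CACGTG is the strongest form, and in TXNIP a pair of imperfect E-boxes is well known. RefSeq windows around start sites (GRCh38.p14), most of each lying before the start, were held for 9 of the 10 genes, 17 windows in all. The bases from -250 to -31, counted from the start, are printed 5′ to 3′ on the gene's strand, for TXNIP from chr1:145996610-145996829 (minus strand) with the CACGAG pair in capitals and for ARRDC4 from chr15:97960453-97960672 (plus strand) with CACGTG in capitals.
TXNIP: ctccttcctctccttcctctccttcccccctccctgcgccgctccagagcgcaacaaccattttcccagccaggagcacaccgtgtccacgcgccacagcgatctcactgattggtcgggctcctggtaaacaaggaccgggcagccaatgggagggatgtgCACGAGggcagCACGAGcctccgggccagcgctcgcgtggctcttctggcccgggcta
ARRDC4: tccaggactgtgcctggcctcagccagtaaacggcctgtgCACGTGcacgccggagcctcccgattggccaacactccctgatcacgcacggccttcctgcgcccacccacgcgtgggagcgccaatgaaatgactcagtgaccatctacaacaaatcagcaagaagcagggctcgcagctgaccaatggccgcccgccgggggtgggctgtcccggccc

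In the TXNIP window the letters CACGAG, 5 other bases and CACGAG again run from -88 to -72. This arrangement was searched for only after the window had been read, and 2 of 34943 RefSeq windows held it on either strand (0.00572%), the other being that of KCTD5. In the ARRDC4 window CACGTG lies from -210 to -205. CACGTG was found in 2 of the 17 windows, those of ARRDC4 and of a downstream start of HK2, against 7.23% of all windows. The carbohydrate response element in its usual spelling was found in 0 of the 17 windows and in 31 of all (0.0887%). The hypoxia response cores ACGTG, which every CACGTG also holds on both strands, and GCGTG were found in 5 and 9 of the 17, against 21.4% and 36.5% of all windows. A match of letters describes the window and not the binding of a factor, which was not measured here.

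Ranked by mean TPM, the siNC cells had SLC2A1, HK1, TXNIP, SLC2A6, HK2, SLC2A8, SLC2A3, ARRDC4, HKDC1 and SLC2A10 from highest to lowest. Among neighbours in this order, the ranges of HK2 and SLC2A8 overlapped and the others did not. In siBCAT1 cells the order was HK1, SLC2A1, TXNIP, SLC2A6, HK2, SLC2A3, SLC2A8, ARRDC4, HKDC1 and SLC2A10. There the ranges of HK1 and SLC2A1 overlapped, as did those of TXNIP with SLC2A6, SLC2A6 with HK2 and ARRDC4 with HKDC1. SLC2A8 (25.3 to 30.6 TPM) was above SLC2A3 (14.6 to 24.1 TPM) in the siNC libraries, whereas SLC2A3 (22.5 to 28.7 TPM) was above SLC2A8 (19.7 to 20.6 TPM) in the siBCAT1 libraries.

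The alpha-arrestins outside the genes above were taken as a list of 4, of which 3 were tested, 2 fell and 0 rose (median log2 fold change -0.65, against 0.04 for all tested genes). For all tested genes the shares were 10.4% lower and 16.7% higher. ARRDC3, which takes part in the endocytosis of membrane receptors, had 17.3, 14.2 and 16.1 TPM in siNC and 6.45, 5.77 and 4.96 TPM in siBCAT1 replicates. All its siBCAT1 values were far below the siNC values, at a log2 difference of -1.33 (SE 0.12, adjusted p = 0.000622 from limma). ARRDC1, which helps to form vesicles at the plasma membrane, had 42.5, 30.4 and 38.0 TPM in siNC and 24.7, 22.0 and 22.2 TPM in siBCAT1 replicates, again without overlap (-0.65, SE 0.13, adjusted p = 0.00981 from limma). ARRDC2 had means of 17.9 and 15.5 TPM (-0.19, adjusted p = 0.392 from limma) with overlapping groups, and ARRDC5 was at 0 in every library.

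MLXIP (MondoA) itself fell. It had 30.3, 26.5 and 25.2 TPM in siNC and 17.8, 16.4 and 16.3 TPM in siBCAT1 replicates, with no overlap, at a log2 difference of -0.67 (SE 0.09, adjusted p = 0.00281 from limma). Its partner MLX had means of 29.2 and 34.1 TPM (0.22, adjusted p = 0.0884 from limma), and all siBCAT1 libraries lay above all siNC libraries. Without siNC replicate 2 the log2 fold change of MLX was 0.28 and passed the threshold (adjusted p = 0.0297 from limma). MLXIPL, the liver paralogue known as ChREBP, had means of 0.477 and 0.163 TPM, under the filter.

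**Figure D2:**
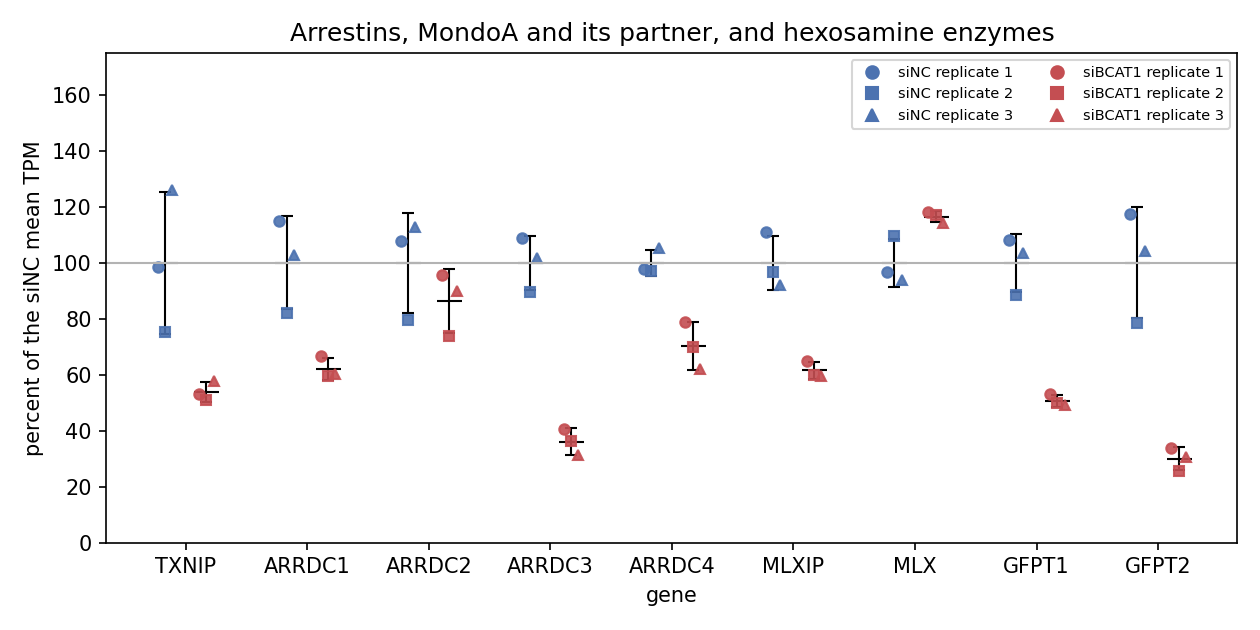
TPM of TXNIP, the other alpha-arrestins, MondoA (MLXIP), MLX and the hexosamine enzymes GFPT1 and GFPT2 in each library as a percent of the siNC mean, with bars for the group mean ± SD (n = 3). TXNIP lies at 50.8 to 57.8% in siBCAT1 libraries and ARRDC3 at 31.3 to 40.7%, whereas MLX lies at 114 to 118%.

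The thioredoxin system, which TXNIP inhibits, had 4 tested genes of 4, of which 3 fell and 0 rose (median log2 fold change -0.42). Among all tested genes 10.4% fell and 16.7% rose. Cytosolic thioredoxin TXN had 628, 686 and 648 TPM in siNC and 477, 524 and 501 TPM in siBCAT1 replicates (-0.38, adjusted p = 0.00290 from limma). Its mitochondrial counterpart TXN2 had means of 97.5 ± 2.49 and 70.8 ± 1.00 TPM (SD, n = 3 each; -0.46, adjusted p = 0.00158 from limma). The cytosolic reductase TXNRD1 had means of 154 ± 22.1 and 98.3 ± 4.17 TPM (SD, n = 3 each; -0.63, adjusted p = 0.00521 from limma). None of these 3 had overlapping groups, and 18.0% of all tested genes were wholly lower in the same way. The mitochondrial reductase TXNRD2 had means of 57.6 and 51.8 TPM with overlap (-0.15, adjusted p = 0.206 from limma).

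Of 10 genes whose proteins modify TXNIP or mark it for degradation, 9 were tested, 1 rose and 0 fell (median log2 fold change 0.03). For all tested genes the shares were 16.7% higher and 10.4% lower. AKT1, a kinase that phosphorylates TXNIP and acts downstream of insulin, had 68.3, 61.8 and 60.1 TPM in siNC and 88.8, 94.7 and 86.1 TPM in siBCAT1 replicates (0.50, SE 0.07, adjusted p = 0.00328 from limma). The groups of AKT1 did not overlap. The ubiquitin ligase ITCH (49.8 and 48.6 TPM on average) and the tested subunits of the energy sensor AMPK did not pass the test. Other transporters of glucose or related sugars added little: of 11 genes, SLC2A11 (5.48 and 6.95 TPM on average) and SLC2A13 (1.47 and 1.89 TPM) were tested and did not pass, and the other 9 were below 1 TPM on average.

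Of the enzymes outside HK1, HK2 and HKDC1 that can phosphorylate glucose, those reported here did not pass the test or the filter. ADPGK, an ADP-dependent kinase of the endoplasmic reticulum, had 42.9 and 43.2 TPM on average (0.01, adjusted p = 0.943 from limma), with a sign that turned under other scalings. HK3, the hexokinase of blood cells, averaged 0.0633 TPM in siNC and 0.0433 TPM in siBCAT1 libraries.

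Trafficking of glucose transporters was represented by 10 genes, all tested, of which 3 rose and 2 fell (median log2 fold change -0.02). Among all tested genes 16.7% rose and 10.4% fell. TBC1D4 is a Rab GTPase-activating protein best known for holding back vesicles of the transporter SLC2A4 (GLUT4) until it is phosphorylated. Its level was 9.68, 11.8 and 9.53 TPM in siNC and 6.09, 4.34 and 5.59 TPM in siBCAT1 replicates (-0.84, SE 0.15, adjusted p = 0.00626 from limma). STX4, a syntaxin of the plasma membrane at which such vesicles fuse, had means of 36.3 ± 2.19 and 49.8 ± 3.70 TPM (SD, n = 3 each; 0.44, adjusted p = 0.00841 from limma). Both were past the threshold in all 14 alternative analyses. SLC2A4 had means of 0.297 TPM in siNC and 0.257 TPM in siBCAT1 libraries, under the filter. Whether TBC1D4 or STX4 bears on the transporters expressed here was not tested. The retromer subunits VPS26A (0.40, adjusted p = 0.0354 from limma) and VPS29 (0.25, adjusted p = 0.0182 from limma) rose and GIPC1, an adaptor that binds SLC2A1 (-0.20, adjusted p = 0.0324 from limma), fell. These 3 calls were each lost in 6 to 9 of the 14 alternatives, among them the analyses without siNC replicate 1, siNC replicate 3, siBCAT1 replicate 1 or siBCAT1 replicate 2, in which 1 gene of the list rose and 1 fell.

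Glucose 6-phosphate, the product of the hexokinases, is used by glycolysis, the pentose phosphate pathway, glycogen synthesis and, by way of fructose 6-phosphate, the hexosamine pathway. Of 11 genes at these branch points, all tested, 3 fell and 1 rose (median log2 fold change -0.12), against 10.4% and 16.7% of all tested genes. GFPT2, which with GFPT1 makes the first committed step of hexosamine synthesis, had 71.6, 47.8 and 63.7 TPM in siNC and 20.6, 15.6 and 18.8 TPM in siBCAT1 replicates (-1.67, SE 0.16, adjusted p = 0.000788 from limma). GFPT1 had 22.2, 18.2 and 21.2 TPM in siNC and 10.9, 10.3 and 10.1 TPM in siBCAT1 replicates (-0.91, SE 0.10, adjusted p = 0.00112 from limma). Neither had overlapping groups, and both were past the threshold in all 14 alternatives. GPI, which makes fructose 6-phosphate, fell from 467 ± 23.9 to 406 ± 18.1 TPM (SD, n = 3 each; -0.20, adjusted p = 0.0361 from limma). The call of GPI was lost in 8 of the 14 alternatives, among them each analysis without 1 library except that without siNC replicate 2 (adjusted p 0.104 without siNC replicate 1, 0.0814 without siNC replicate 3, and 0.116, 0.102 and 0.0502 without siBCAT1 replicates 1, 2 and 3, from limma). G6PC3, the widely expressed glucose 6-phosphatase that releases glucose again, rose from 44.6 ± 1.56 to 60.9 ± 2.58 TPM (SD, n = 3 each; 0.44, adjusted p = 0.00353 from limma).

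**Figure D3:**
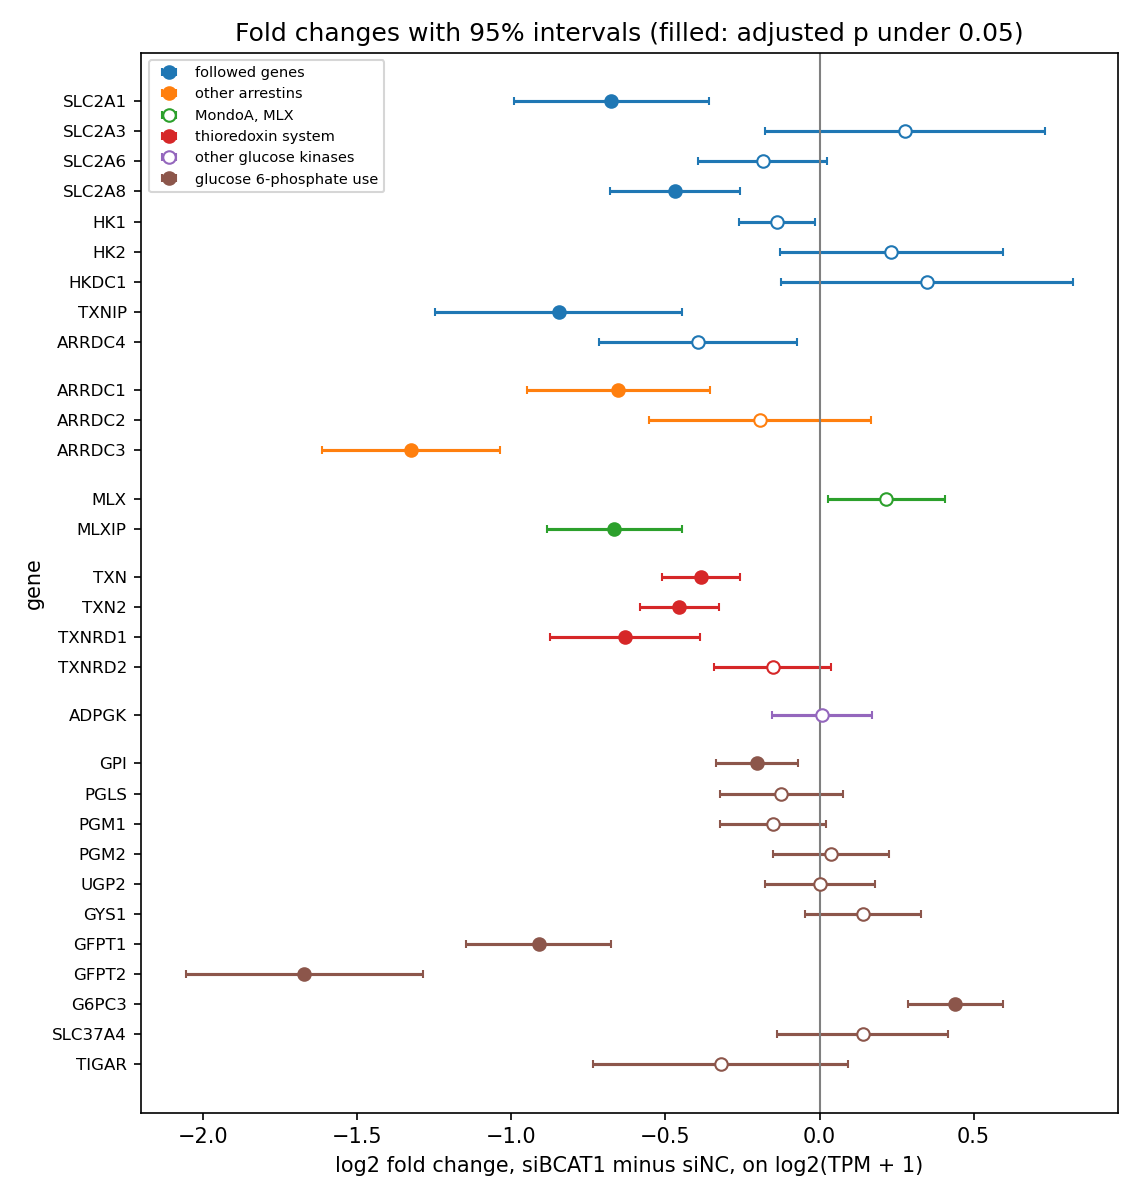
Difference of mean log2(TPM + 1), siBCAT1 minus siNC, with its 95% interval from limma for the 9 tested genes and the tested genes of 5 related lists. Filled symbols have an adjusted p under 0.05: SLC2A1, SLC2A8 and TXNIP lie left of 0 among the followed genes, and GFPT2 (-1.67) lies farthest left.

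As a description of what varied alongside the genes that fell, Pearson's r over the 6 libraries on log2(TPM + 1) was computed against all tested genes. It is set mostly by the difference between the groups, and 713 genes exceeded an r of 0.9 with SLC2A1, 1032 with SLC2A8 and 647 with TXNIP. Closest to SLC2A1 were AFAP1 (r = 0.997), ARL6IP1 (0.994) and UAP1L1 (0.992). For SLC2A8 they were PLPPR2 (0.997), IRF2BPL (0.996) and ACTN4 (0.996), and for TXNIP they were GRINA (0.999), SERPINB2 (0.997) and RHOF (0.994). GRINA, with 142, 128 and 154 TPM in siNC and 113, 113 and 117 TPM in siBCAT1 replicates, had the same order of libraries as TXNIP.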

How the data were processed

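RNA-seq of 6 libraries of 67R cells was analysed, grouped by the sample titles (NC or siBCAT1). The authors deposited 1 TPM value per gene and library with a gene length. The unit was read from the values, and no replicates were pooled. The submitters' processing notes name fastp, HISAT2, StringTie and GRCh38, and the annotation is not given in the sources used here. TPM holds no read counts, so precision rests on the spread between 3 libraries a group. Within a group, libraries had identical values for 1.04 to 1.42% of tested genes.

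Values were transformed to log2(TPM + 1), and the 14286 genes averaging 1 TPM or more entered limma 3.58.1 (R 4.3.3), with lmFit and eBayes following the trend of variance with expression, two-sided p and Benjamini-Hochberg adjustment (threshold 0.05). Sums, shares and ratios were compared by exact permutation. On simulated data with 100 genes changed by 0.5 and 100 by 1 on the log2 scale among 14286, shares of 0.22 and 0.72 were called, 0 in the wrong direction. Far more genes were called in the data (2382 higher and 1483 lower), and the adjusted threshold depends on that number. The shares therefore check the procedure and do not measure its sensitivity in these data. Alternatives were no filter, a minimum mean of 5 TPM, a pseudocount of 0.1, eBayes without trend, a replicate block, median-ratio scaling, quantile normalization, loess correction for GC content and length (span 0.5), and each library left out.

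The genes and lists were chosen with earlier results of these data known. All 10 genes, BCAT1, every gene of lists of at most 4, and of other lists up to 3 called genes in each direction were named, with the 3 genes most like each called gene. Some genes of these lists are not reported here. KCTD5, SLC2A4, SLC2A14, ITCH, SLC2A11, SLC2A13, KRT18 and the cell type markers not called were named outside this rule, after their values were seen. Gene positions are from GENCODE 29 (GRCh38) and promoters from RefSeq. Python 3.11.15, numpy 2.4.6, pandas 2.3.3, scipy 1.17.1 and matplotlib 3.10.9 were used.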

Additional observations from a re-analysis of the deposited data

How the results depend on the processing

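SLC2A8 and the counts of 0 genes called higher among the 9 tested kept their call in all 14 alternatives, and no log2 fold change of the 9 tested genes changed sign. With each library left out in turn, the log2 fold change lay between -0.77 and -0.51 for SLC2A1, -1.03 and -0.67 for TXNIP, 0.06 and 0.41 for SLC2A3, 0.09 and 0.38 for HK2, and 0.18 and 0.50 for HKDC1, and the number of the 9 called lower lay between 1 and 3. It was 1 without siNC replicate 1, and at most 4 in any alternative. ARRDC4 passed the threshold with eBayes without trend (-0.39), median-ratio scaling (-0.43) and correction for GC content and length (-0.44), and HK1 with quantile normalization (-0.24). The difference in summed hexokinase TPM was -6.49, -11.8 with median-ratio scaling and -9.26 to -3.62 with a library left out, and the difference in the SLC2A8 share lay between -1.04 and 0.548 percentage points with a library left out. ADPGK turned to -0.039 with median-ratio scaling, -0.076 with quantile normalization and -0.056 with correction for GC content and length, and lay between -0.037 and 0.044 with a library left out. The cause of these changes was not tested. Over all tested genes, 2382 were called higher and 1483 lower, against 1607 and 960 with no filter, and 1435 to 2276 and 796 to 1430 with a library left out. The excess of higher calls was smaller under other scalings. It was 1957 higher and 1802 lower with median-ratio scaling and 2042 and 1865 with quantile normalization. Correction for GC content and length gave 2212 and 1867. Higher calls made up 61.6% of all calls in the main fit and 52.1%, 52.3% and 54.2% under these settings. The labels tie libraries of the same replicate number by nothing but that number. Deviations from the group mean correlated at 0.0844, 0.102 and 0.124 between same-numbered libraries. Between the others the correlations were all negative, from -0.0814 to -0.0134, a hint in the data that same-numbered libraries are paired. For the summed glucose transporter TPM, an exact permutation within such pairs gave p = 0.25, the smallest that 3 pairs can give. With a replicate block, 2773 genes were called higher and 1795 lower, no call among the 9 tested genes changed (SLC2A1 -0.68, TXNIP -0.85), and VPS26A and GPI lost their calls (adjusted p = 0.0591 and 0.0543 from limma). ARRDC4 and HKDC1 have no value with a minimum of 5 TPM. Since read depth is unknown, no limit can be set on the level of SLC2A10.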
